A study of Homo sapiens with 24 samples.

Results

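The genes described here are 38 human genes of tRNA charging: aminoacyl-tRNA synthetases and the scaffold proteins AIMP1 and AIMP2. They were taken by name out of 20033 protein-coding genes, and comprise 18 cytosolic enzymes, 2 enzymes that serve both compartments, 16 mitochondrial enzymes and 2 scaffolds. A gene was marked when a Myc peak reached within 1 kb of either end of its RefSeq span. The assay was CUT&Tag against Myc: an antibody brings a transposase to its target, and the DNA cut and tagged there is sequenced. Both libraries came from MIA PaCa-2, a long-established line of human pancreatic carcinoma, carrying a doxycycline-inducible construct for MED30, a subunit of the Mediator complex. A library titled as day 5 of doxycycline was set against a library made without doxycycline, with 1 library each, and the other 22 of 24 samples were not analysed here. The sources used here do not say whether the line is a clone, give no doxycycline control without the construct, and mention 2 days of doxycycline in the shared protocol.

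The lists held 6727 peaks at day 5 and 3472 peaks without doxycycline on chromosomes 1 to 22, X and Y. Depth as a read total is unknown. Fragments over each summit were therefore recovered from the deposited fold and p-value, with a median of 12 per peak at day 5 and 11 without doxycycline. With 1 library a condition there is no replicate check and no test, and every difference compares these 2 libraries. Intervals on fragments are exact 95% Poisson intervals and cover counting error only. Control IgG libraries were not used here, and peaks that such a library would share were not removed. Peak lists hold no expression values, so neither the identity of the line nor the induction of the construct was checked.

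Aminoacyl-tRNA synthetases join each amino acid to its tRNA, the step at which the genetic code is read into protein. Cytosol and mitochondria mostly use separate nuclear-encoded enzymes, whereas GARS1 and KARS1, for glycine and lysine, supply both. In the cytosol several synthetases sit in a multisynthetase complex held together by scaffolds that include AIMP1 and AIMP2. Myc, as a dimer with Max, binds the E-box CACGTG, is known for binding genes of protein synthesis, and is frequently raised in pancreatic cancer.

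The promoter windows that the results turn on are shown first. Each is a RefSeq window of GRCh38.p14 from 250 bases before to 50 bases after an annotated transcript start, written 5′ to 3′ along the gene. In the first 5 windows, those of the members whose window held CACGTG, the capitals mark that motif. The next, of TARS1, has the related CACGCG in capitals, and FARSB, with none of the 3 motifs searched, is shown because its peak was among the strongest of the group.
AIMP2, chr7:6009315-6009614, plus strand: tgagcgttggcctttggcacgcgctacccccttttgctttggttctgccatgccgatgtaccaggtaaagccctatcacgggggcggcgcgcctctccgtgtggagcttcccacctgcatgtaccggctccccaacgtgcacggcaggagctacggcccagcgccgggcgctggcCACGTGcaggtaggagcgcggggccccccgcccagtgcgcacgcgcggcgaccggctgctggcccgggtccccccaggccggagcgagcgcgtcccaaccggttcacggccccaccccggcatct
IARS1, chr9:92293648-92293947, minus strand: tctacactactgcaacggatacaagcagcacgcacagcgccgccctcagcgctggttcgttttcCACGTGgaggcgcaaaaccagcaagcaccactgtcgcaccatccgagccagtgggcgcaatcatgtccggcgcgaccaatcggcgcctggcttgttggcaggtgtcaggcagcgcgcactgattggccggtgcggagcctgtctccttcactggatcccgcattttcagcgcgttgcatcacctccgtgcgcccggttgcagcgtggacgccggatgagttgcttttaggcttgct
EARS2, chr16:23557301-23557600, minus strand: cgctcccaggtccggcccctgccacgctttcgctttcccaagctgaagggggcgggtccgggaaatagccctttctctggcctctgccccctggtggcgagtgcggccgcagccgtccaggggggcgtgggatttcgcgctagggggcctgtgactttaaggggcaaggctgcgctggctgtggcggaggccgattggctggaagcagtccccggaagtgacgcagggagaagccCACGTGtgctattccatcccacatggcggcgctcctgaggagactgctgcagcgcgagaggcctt
CARS2, chr13:110706466-110706765, minus strand: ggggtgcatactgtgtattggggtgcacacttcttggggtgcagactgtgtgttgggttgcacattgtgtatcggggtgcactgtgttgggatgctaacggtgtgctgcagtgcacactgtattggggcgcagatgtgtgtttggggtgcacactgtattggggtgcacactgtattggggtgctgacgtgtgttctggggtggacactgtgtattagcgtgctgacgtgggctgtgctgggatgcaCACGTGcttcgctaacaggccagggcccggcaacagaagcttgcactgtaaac
MARS2, chr2:197705119-197705418, plus strand: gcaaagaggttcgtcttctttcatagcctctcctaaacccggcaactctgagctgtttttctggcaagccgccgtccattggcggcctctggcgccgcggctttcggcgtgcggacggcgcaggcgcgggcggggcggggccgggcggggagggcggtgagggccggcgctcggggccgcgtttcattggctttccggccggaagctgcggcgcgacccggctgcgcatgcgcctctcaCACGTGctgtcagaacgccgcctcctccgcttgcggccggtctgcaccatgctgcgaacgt
TARS1, chr5:33440446-33440745, plus strand: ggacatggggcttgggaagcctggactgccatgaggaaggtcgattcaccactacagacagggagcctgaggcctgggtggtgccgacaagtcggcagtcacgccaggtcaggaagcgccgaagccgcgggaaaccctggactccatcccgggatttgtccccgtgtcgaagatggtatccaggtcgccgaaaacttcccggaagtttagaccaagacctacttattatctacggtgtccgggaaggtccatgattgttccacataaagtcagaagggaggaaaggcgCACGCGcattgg
FARSB, chr2:222656043-222656342, minus strand: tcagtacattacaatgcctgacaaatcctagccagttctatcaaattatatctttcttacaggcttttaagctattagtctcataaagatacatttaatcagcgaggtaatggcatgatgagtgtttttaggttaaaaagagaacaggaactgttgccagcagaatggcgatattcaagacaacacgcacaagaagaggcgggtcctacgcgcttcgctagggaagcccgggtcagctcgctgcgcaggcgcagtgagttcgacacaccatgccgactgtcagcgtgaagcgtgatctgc

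Myc peaks were listed at a larger share of these genes than of all protein-coding genes in both libraries, a description with no test. At day 5, 22 of the 38 members (57.9%, exact binomial interval 40.8 to 73.7) had a peak, where 27.4% of all protein-coding genes did. Without doxycycline 17 members (44.7%, 28.6 to 61.7) had one, beside 14.4% of all. The comparison genes were matched neither on activity nor on promoter composition, and the intervals treat genes as independent draws. Both lists marked 14 members, beside 12.9% of all genes. A further 8 were marked at day 5 only, beside 14.5%, and 3 without doxycycline only, beside 1.57%. No peak was in reach of the remaining 13 in either list, and at this depth that is not evidence of absence.

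The higher number at day 5 went with the longer list. When the day 5 list was cut to its 3472 highest-ranked peaks, 15 members were marked at day 5, against 17 without doxycycline, beside 15.7% and 14.4% of all genes. The 7 members lost by that step were IARS2, KARS1, MARS2, NARS1, SARS1, TARS3 and WARS1. Among members with a day 5 peak, 63.6% were also marked without doxycycline, beside 47% of all genes with a day 5 peak. Of those marked without doxycycline 82.4% were also marked at day 5, beside 89.1% of all such genes.

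The peaks of marked members were often high in their lists. At day 5, 6 of the 22 marked members (27.3%) lay in the upper 10% of peaks by rank, beside 12.8% of all marked genes, and without doxycycline 5 of 17 (29.4%), beside 12.1%. Marked members had a median of 17 summit fragments at day 5 and 13 without doxycycline, beside 12 and 11 for all marked genes. The 8 members listed at day 5 only were weaker, with a median of 10, than the 14 in both lists, with a median of 23 at day 5, and all marked genes had the same order with 10 and 18.

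For cytosolic and mitochondrial enzymes no difference in the share marked was detectable. At day 5, 10 of 18 cytosolic enzymes (55.6%, 30.8 to 78.5) and 8 of 16 mitochondrial enzymes (50%, 24.7 to 75.3) had a peak. Without doxycycline the counts were 8 cytosolic (44.4%, 21.5 to 69.2) and 7 mitochondrial enzymes (43.8%, 19.8 to 70.1). The intervals overlap over most of their length, which with so few genes is not evidence of equal shares. Cut to equal numbers of peaks, the day 5 list marked 6 cytosolic and 6 mitochondrial enzymes, beside 15.7% of all protein-coding genes. The full lists marked 27.4% of all protein-coding genes at day 5 and 14.4% without doxycycline. Adding GARS1 and KARS1 to both sides gave 12 of 20 against 10 of 18 at day 5, and 9 of 20 against 8 of 18 without doxycycline.

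**Figure D1:**
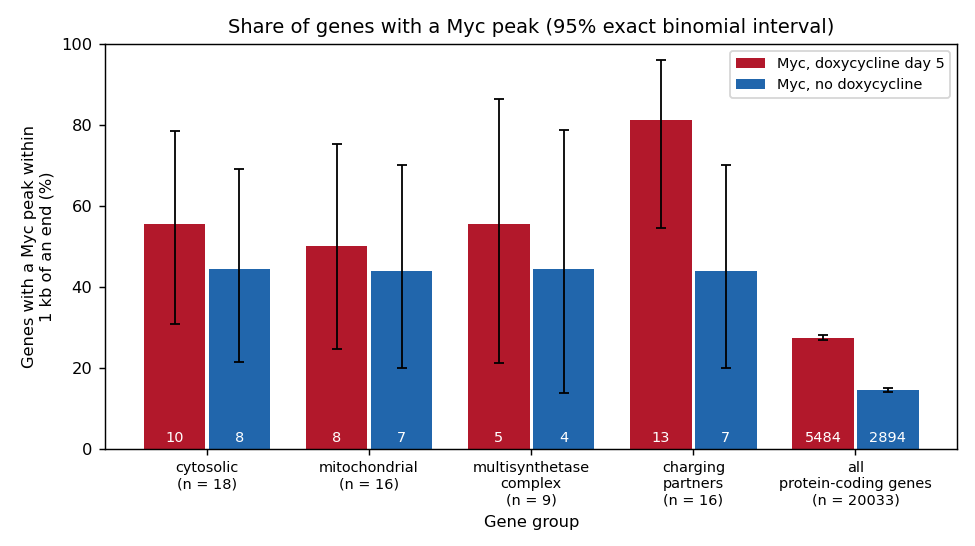
Share of genes in percent (vertical axis) marked by the 1 kb rule, for each gene group (horizontal axis), at day 5 of doxycycline (red) and without doxycycline (blue). White numbers count the genes, and error bars are exact 95% binomial intervals. Cytosolic and mitochondrial enzymes stand at 55.6% and 50% at day 5, both above the 27.4% of all protein-coding genes. The interval of the mitochondrial enzymes at day 5, 24.7 to 75.3, contains that 27.4%, and that of the cytosolic enzymes, 30.8 to 78.5, does not. These intervals overlap over most of their length, and no test of a difference between the groups was made. Without doxycycline the intervals, 21.5 to 69.2 (cytosolic) and 19.8 to 70.1 (mitochondrial), both lie above the 14.4% of all protein-coding genes.

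Among cytosolic enzymes the strongest peak was that of TARS1, the threonyl-tRNA synthetase. It had 52 summit fragments at day 5 (interval 38.8 to 68.2), against 28 without doxycycline (18.6 to 40.5). Ranked by the authors' −log10 q within each list, this peak stood 56th of 6727 at day 5 and 249th of 3472 without doxycycline. FARSB, the beta subunit of phenylalanyl-tRNA synthetase, had 36 fragments at day 5 (25.2 to 49.8) and 22 without doxycycline (13.8 to 33.3). FARSA, which supplies the alpha subunit of the same enzyme, had no peak in reach, the nearest lying 4.25 kb away at day 5 and 4.22 kb away without doxycycline. The pair of genes for this enzyme therefore differed in both libraries.

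IARS1, for isoleucine, had 32 fragments at day 5 (21.9 to 45.2), against 16 without doxycycline (9.15 to 26). YARS1, for tyrosine, had 26 (17 to 38.1), against 10 (4.8 to 18.4). LARS1, the leucyl enzyme that also takes part in leucine sensing by mTORC1, had 20 (12.2 to 30.9), against 12 (6.2 to 21). These genes had more fragments at day 5, though the Poisson intervals of each pair overlap. For the ratio between libraries, not scaled for depth, the intervals of IARS1 and YARS1 lay above 1 and that of LARS1 contained 1. Each contained 1.43, the median ratio of all genes in both lists. SARS1, for serine, had fewer fragments at day 5, with 5 (1.62 to 11.7), against 7 without doxycycline (2.81 to 14.4), at counts too low to tell apart.

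Listed at day 5 only were the enzymes for alanine, asparagine and tryptophan and the threonyl-tRNA synthetase TARS3. AARS1 had 20 summit fragments (12.2 to 30.9) at its start. A weak peak of 6 fragments at its far end lay 57 bp from an end of EXOSC6, an exosome subunit, and 301 bp from that of AARS1. NARS1 and WARS1 had 10 fragments each (4.8 to 18.4), and TARS3 had 4 (1.09 to 10.2), which placed it 6133rd of 6727. Without doxycycline only, EPRS1, which charges glutamate and proline, had 7 fragments (2.81 to 14.4), as did HARS1, for histidine. Genes without a peak in reach in either list were CARS1, FARSA, MARS1, QARS1, RARS1 and VARS1, for cysteine, phenylalanine, methionine, glutamine, arginine and valine.

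QARS1 lay just outside the limit, with the nearest peak 1.28 kb from its span at day 5 and 1.26 kb without doxycycline. A window of 2500 bp would have added QARS1 and no other member in either library. The farthest peak that still counted was that of AIMP1, whose edge lay 660 bp from the span at day 5. Of the enzymes of both compartments, GARS1 had 19 fragments at day 5 (11.4 to 29.7), against 11 without doxycycline (5.49 to 19.7). KARS1 was listed at day 5 only, with 9 fragments (4.12 to 17.1).

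Within 1 kb of span ends, the mitochondrial enzymes with most summit fragments were those for tryptophan and glutamate. WARS2 had 32 summit fragments at day 5 (21.9 to 45.2), against 21 without doxycycline (13 to 32.1). EARS2, whose product charges both tRNA-Glu and, before amidation, tRNA-Gln in mitochondria, had 26 (17 to 38.1), against 23 (14.6 to 34.5). Both stood in the upper 10% of each list, WARS2 at 302nd and EARS2 at 549th at day 5, and at 331st and 256th without doxycycline. By fragments, these were the strongest mitochondrial peaks within that distance in both libraries, while a peak inside FARS2, described further on, had more.

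CARS2 for cysteine and SARS2 for serine had 17 fragments each at day 5 (9.9 to 27.2), against 14 (7.65 to 23.5) and 13 (6.92 to 22.2) without doxycycline. NARS2, for asparagine, had 15 (8.4 to 24.7), against 13 (6.92 to 22.2), and YARS2, for tyrosine, 13 (6.92 to 22.2), against 9 (4.12 to 17.1). For each of these genes the interval of the ratio between libraries contains 1. MARS2, for methionine, with 11 fragments (5.49 to 19.7) and IARS2, for isoleucine, with 7 (2.81 to 14.4) were listed at day 5 only. HARS2, for histidine, was listed without doxycycline only, through the same peak of 7 fragments as HARS1, since these genes face away from a shared start region. AARS2, FARS2, LARS2, PARS2, RARS2, TARS2 and VARS2 had none in reach in either list.

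**Figure D2:**
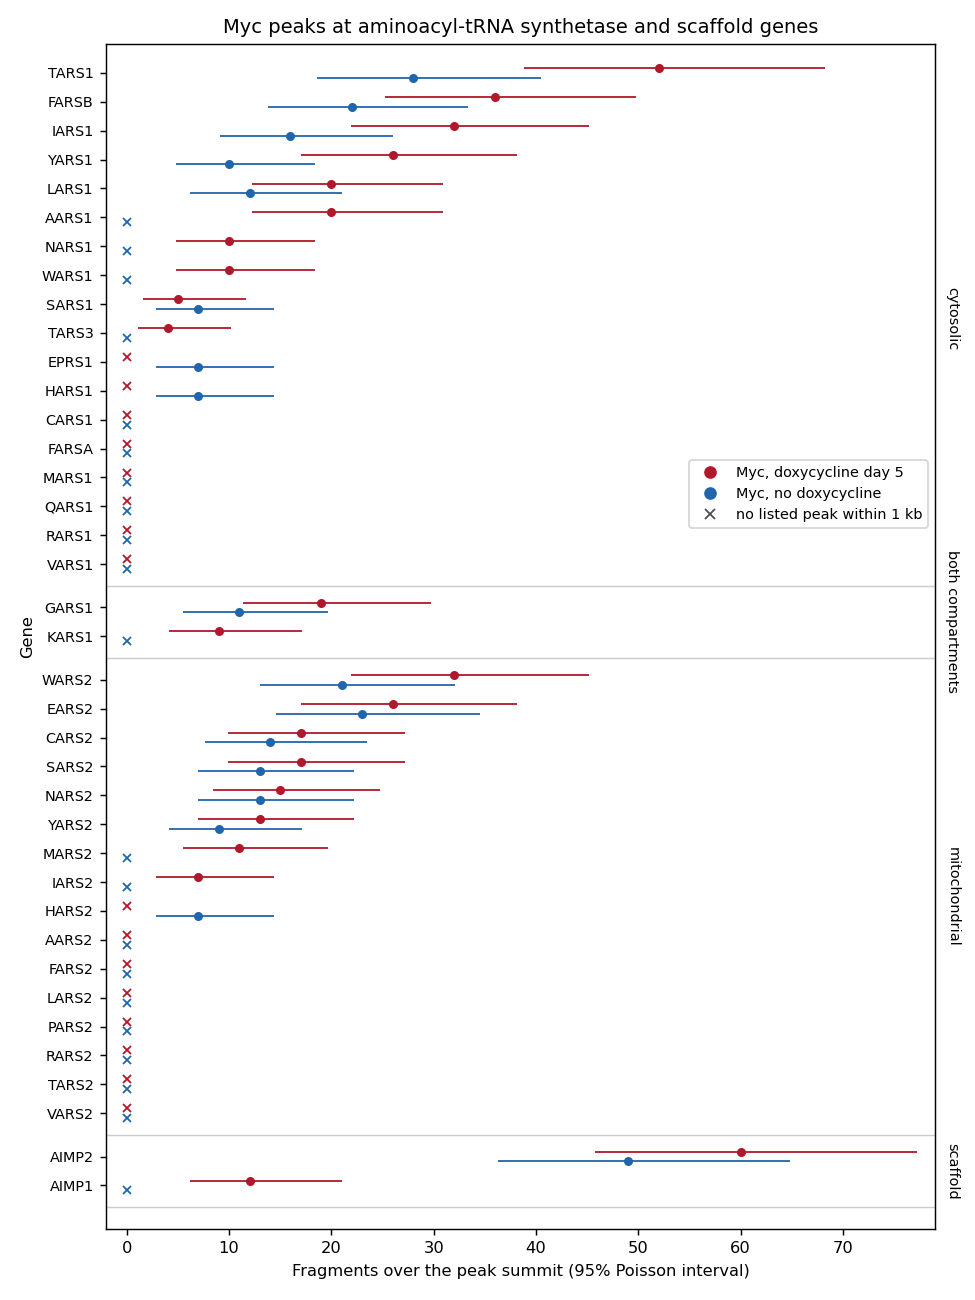
Fragments over the summit of the highest-ranked Myc peak in reach (horizontal axis) for each of the 38 genes (vertical axis), grouped by role, at day 5 of doxycycline (red) and without doxycycline (blue). Points are single libraries with exact 95% Poisson intervals, and crosses at 0 mark genes with no listed peak within 1 kb. AIMP2 reaches 60 fragments and TARS1 52 at day 5, while 13 genes show crosses in both libraries.

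For 2 of the mitochondrial enzymes the span ends did not capture the peak at an annotated transcript start. FARS2, for phenylalanine, was unmarked by the 1 kb rule, yet a peak within its span lay at an annotated start, 11.1 kb from the nearest span end at day 5. It held 35 fragments (24.4 to 48.7) with its summit 14 bp from that start at day 5, against 29 (19.4 to 41.6) and 485 bp without doxycycline. That region also holds an end of LYRM4, an iron-sulfur cluster assembly gene. CARS2 had an additional peak at an internal start, 7.05 kb from the span end at day 5, with 19 fragments in each library (11.4 to 29.7). Set around annotated starts, with span ends where no start was tabulated, the count was 23 members at day 5 and 18 without doxycycline, beside 27.9% and 14.7% of all genes, a setting chosen after seeing the data.

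VARS1 and VARS2, the valine enzymes, lie in the major histocompatibility region of chromosome 6. Between them, from 30914238 to 31795752, the primary chromosome carried 2 peaks at day 5 and 0 without doxycycline. Of the 47 protein-coding genes there, 4 (8.51%) had a peak at day 5 and 0 without doxycycline. The lists also held 90 peaks at day 5 and 30 without doxycycline on alternate contigs of chromosome 6, which were not assigned to genes. Their part in the absence of peaks at both genes was not tested.

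The scaffold AIMP2 carried the strongest peak of the whole group in both libraries, with 60 summit fragments at day 5 (45.8 to 77.2), against 49 without doxycycline (36.3 to 64.8). It ranked 36th at day 5 and 33rd without doxycycline. The same peak reaches PMS2, a DNA mismatch repair gene whose end lay 216 bp from the day 5 summit, where that of AIMP2 lay 50 bp away. AIMP1, the other scaffold, had 12 fragments (6.2 to 21) at day 5 only, with TBCK nearer to the summit. Of the 9 members that belong to the multisynthetase complex, 5 were marked at day 5 (AIMP1, AIMP2, IARS1, KARS1 and LARS1) and 4 without doxycycline (AIMP2, EPRS1, IARS1 and LARS1). Cytosolic enzymes outside it had 8 of 12 at day 5 and 5 of 12 without doxycycline. The shares over all protein-coding genes were 27.4% at day 5 and 14.4% without doxycycline.

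Set out by amino acid, both compartments were marked for some amino acids and a single compartment for others. For 16 amino acids an enzyme of each compartment could be compared, counting EPRS1 for both glutamate and proline and either FARS subunit for phenylalanine. At day 5 both compartments were marked for 5 of them, isoleucine, asparagine, serine, tryptophan and tyrosine. For 4 the cytosolic gene alone was marked, for 3 the mitochondrial gene alone, and for 4 neither, among which were arginine and valine. Without doxycycline both were marked for 4, the cytosolic gene alone for 5, the mitochondrial gene alone for 3 and neither for 4. Of all protein-coding genes, taken singly, 27.4% were marked at day 5 and 14.4% without doxycycline. Whether the marks of the compartments go together by amino acid was not tested. Phenylalanine counted as cytosolic alone in both libraries, since the peak at the internal start of FARS2 lies beyond 1 kb of its span ends. Set around annotated starts, FARS2 was marked in both libraries. As the shared peak of HARS1 and HARS2 shows, compartments are not always independent here.

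Where a start was tabulated, the highest-ranked peak of each marked member lay towards the start of its span. The weaker of the AARS1 peaks at day 5 lay at the far end. Of 19 members with a day 5 peak and a tabulated start, 16 (84.2%) had the summit within 500 bp of an annotated start, beside 82% of all protein-coding genes with a peak. The median distance was 152 bp, beside 221 bp for all. Without doxycycline 14 of 15 (93.3%) lay within 500 bp, with a median of 87 bp, beside 81.2% and 239 bp. The highest-ranked peak was nearer the start than the far end of the span in every one of these members, beside 4.92% of all genes at day 5 and 5.15% without doxycycline for which it was nearer the far end.

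**Figure D3:**
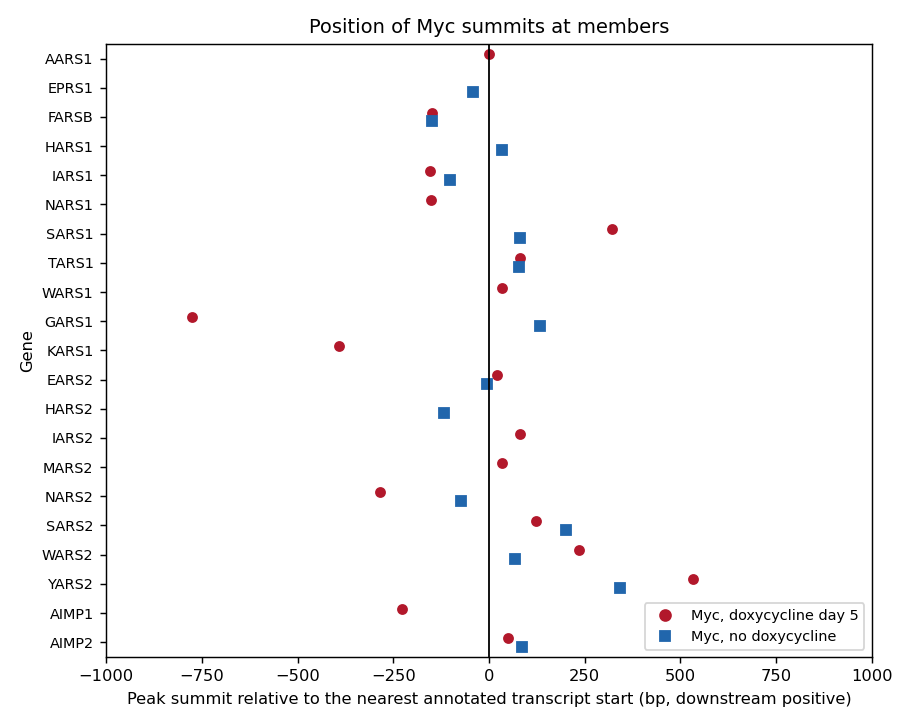
Distance in bp from the nearest annotated transcript start to the Myc summit (horizontal axis, downstream positive) for each member with a peak and a tabulated start (vertical axis), at day 5 of doxycycline (red circles) and without doxycycline (blue squares). CARS2 lies outside the plotted range, and most points fall within 500 bp of the start.

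At the 14 members in both lists the peaks overlapped each time, and summits of the 2 libraries were a median of 167 bp apart. For FARSB the summit fell on the same base in both libraries. TARS1 differed by 4 bp, EARS2 by 25 bp and AIMP2 by 37 bp. GARS1 differed most, by 1054 bp, with a peak of 972 bp at day 5 and 1277 bp without doxycycline, and the summit without doxycycline lay outside the day 5 peak. Member peaks had a median width of 674 bp at day 5 and 558 bp without doxycycline, beside 580 and 509 bp over all peaks.

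Several peaks reach another protein-coding gene, and a peak cannot be given to either gene from its position alone. At day 5 this held for 9 of 22 members and without doxycycline for 7 of 17. The matching share over all marked genes is not given here, so these counts are not a trait of the group. SARS2 shared its peak with MRPS12, a mitochondrial ribosomal protein gene, EARS2 with UBFD1, and WARS1 with WDR25. The neighbour was nearer the summit for AIMP1, CARS2 and KARS1 at day 5, with TBCK, ING1 and the telomere protein gene TERF2IP in their place. Counting only the nearest gene left 19 members at day 5 and 16 without doxycycline. Of all genes it left 22.3% and 11.5%, in place of 27.4% and 14.4%.

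Where both lists had a peak, most members had more summit fragments at day 5, much as other genes did. The 14 members had a median ratio of 1.48 for day 5 over no doxycycline, beside 1.43 for 2580 protein-coding genes in both lists (quartiles 1.13 and 1.82). These ratios are not scaled for depth. Summed over the 14 members there were 370 fragments at day 5, against 248 without doxycycline, a ratio of 1.49 (exact interval 1.27 to 1.76, counting error only). By the deposited fold enrichment, which is relative to each library's own background, the median ratio was 1.13, beside 1.08 for all genes.

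YARS1 had the highest ratio, 2.6 (1.21 to 6.04), which 94.1% of genes in both lists did not reach. IARS1 followed with 2 (1.07 to 3.9) and TARS1 with 1.86 (1.15 to 3.05). These 3 were the members whose interval lay above 1, and each interval contained the 1.43 of all genes. The 6 cytosolic enzymes had a median of 1.76, from 0.714 for SARS1 to 2.6, and the 6 mitochondrial enzymes one of 1.26, from 1.13 for EARS2 to 1.52 for WARS2. The members' counting intervals overlap between the groups, and no test of this difference was made.

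**Figure D4:**
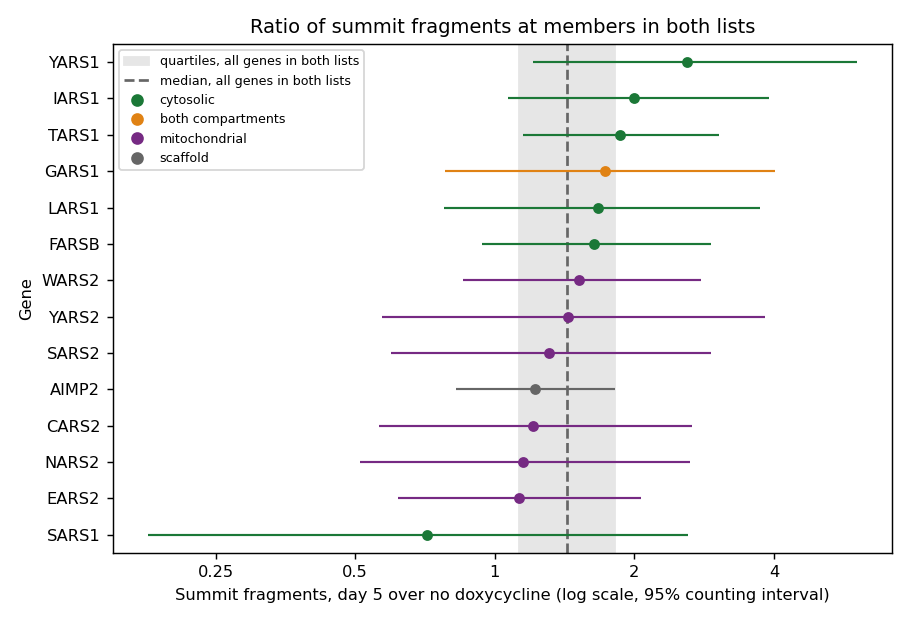
Ratio of summit fragments, day 5 over no doxycycline (horizontal axis, log scale), for the 14 members with a peak in both lists (vertical axis), coloured by role, with exact 95% counting intervals. The dashed line and grey band give the median of 1.43 and the quartiles of all protein-coding genes in both lists. Every interval crosses the dashed line.

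Promoter windows were tabulated for 32 of the 38 members. CACGTG, which reads the same on both strands, was found in the windows of 5 (15.6%), beside 10.9% of 15842 protein-coding genes. These were AIMP2, IARS1, EARS2, CARS2 and MARS2, the windows shown above. In each the motif lay inside a listed Myc peak, in both libraries except for MARS2, which had a day 5 peak only. From the day 5 summit the motif was 27 bp away at IARS1, 31 bp at EARS2, 40 bp at CARS2, 45 bp at MARS2 and 168 bp at AIMP2. For CARS2 this is the peak at the internal start, not the peak by which it was marked. Relative to the annotated start of the window shown, the first base of the motif lay 3 bp upstream at CARS2, 11 bp at MARS2, 15 bp at EARS2, 75 bp at AIMP2 and 186 bp at IARS1. From a further annotated start of EARS2 it lay 10 bp downstream, and AIMP2 has another annotated start, at the first base of its span, of which the motif lies downstream.

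Of the 22 members with a window and a mark in either list, 5 (22.7%) held CACGTG, beside 15.8% of all such genes. Of the 10 with a window and no mark 0 did, beside 8.69%, and these 10 include FARS2, whose window lies in the peak inside its span. The related motif CACGCG, searched on both strands, was in the windows of 9 members (28.1%), beside 18.1% of all genes. CATGTG, also searched on both strands, was in those of 3 (9.38%), beside 11.5%. No hit of a motif overlapped a hit of another in these windows. TARS1 held CACGCG inside its peak, 313 bp from the day 5 summit. AIMP2 held CACGCG as well, 10 bp and 207 bp from its day 5 summit, with its CACGTG at 168 bp. FARSB held none of the 3, and its window had a G and C content of 46.7%, the lowest of the members, whose median was 61.8%, beside 62.3% for all genes. A match is a description of letters and not of a binding site.

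Partners of the synthetases in tRNA charging were often marked too. Of 16 such genes 13 (81.2%, interval 54.4 to 96) had a peak at day 5 and 7 (43.8%, 19.8 to 70.1) without doxycycline, beside 27.4% and 14.4% of all protein-coding genes. With equal numbers of peaks the counts were 7 at day 5 and 7 without doxycycline, beside 15.7% and 14.4%. PPA1, the cytosolic pyrophosphatase that removes the pyrophosphate released by charging, had 35 fragments at day 5 only, and its mitochondrial counterpart PPA2 had 14 at day 5 only. EEF1A1, which carries charged tRNA to the ribosome, had 26 fragments at day 5, against 25 without doxycycline. EEF1E1, a further scaffold of the multisynthetase complex, had 21, against 6.

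PSTK, which phosphorylates seryl-tRNA on the way to selenocysteine, had 15 fragments at day 5, against 9 without doxycycline, and XPOT, the tRNA exporter, had 13, against 7. In both lists were also AARSD1 and DTD2, which remove wrongly attached amino acids, and GATC, a subunit of the mitochondrial amidotransferase that makes glutaminyl-tRNA. Their day 5 peaks had 7 to 11 fragments. QRSL1, another subunit of that amidotransferase, DTD1, PTRH2 and SEPSECS were listed at day 5 only, with 7 or 8. GATB, the remaining subunit, MTFMT, which formylates the mitochondrial initiator tRNA, and TUFM, the mitochondrial elongation factor Tu, had no peak in reach in either list.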

How the data were processed

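Myc peaks of 2 libraries, grouped by their titles, were used, and 22 samples were not analysed here. The submitters' processing notes name MACS2, Bowtie2, Trim Galore and deepTools, and the build hg38 (versions, settings and any control in the calls: not given in the sources used here). Peaks were called per library, per the peak names in the files. The authors deposited for each peak a score (10 times the −log10 q-value, cut to an integer), the fold enrichment at the summit (a ratio to that library's local background), the −log10 p-value, the −log10 q-value (at least 1.33) and the summit offset. These values ranked peaks within a list.

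From these, summit fragments were recovered as the whole number k for which fold is (k + 1)/(background + 1) and p the Poisson tail, within 0.001 in −log10 p for 100% of peaks in both lists. The recovery was tested on simulated data. These were written with the same formulas, so the test checked the inversion and could not show whether the deposited values follow them. Gene spans and promoter windows came from RefSeq GRCh38.p14 (hg38), for protein-coding genes on chromosomes 1 to 22, X and Y. The highest-ranked peak in reach stood for a gene. Python 3.11.15, numpy 2.4.6, scipy 1.17.1 and pandas 2.3.3 were used. Members, gene lists and alternatives were chosen with earlier results of these data known, and all 38 members and 16 partners were found by symbol in RefSeq. A further partner gene is not reported here. PCR duplicates are not visible in peak lists.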

Additional observations from a re-analysis of the deposited data

Results flagged for a closer look

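Peaks on alternate contigs of chromosome 6 were outside the comparisons of genes and numbered 90 at day 5 and 30 without doxycycline. They were flagged as data left unanalysed, and not by a test. They were not assigned to genes, no value here places any of them at VARS1 or VARS2, and control libraries were not used here.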

How the results depend on the processing

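Of 59 recomputed values, 53 stayed within 1.5 times the reported count, or within its counting interval for the ratio. They covered windows of 500 and 2500 bp, summits in place of peak edges, the nearest gene only, a −log10 q of at least 3, overlap rules and, chosen after seeing the data, annotated starts. Keeping the upper 50% of each list left 10 members without doxycycline, and 6 cytosolic enzymes at day 5 and 4 without doxycycline, by its own construction. At that setting 15.3% of all protein-coding genes were marked at day 5 and 8.02% without doxycycline. Equal numbers of peaks left 6 cytosolic enzymes at day 5, and put the count of all members at day 5, 15, under the 17 without doxycycline. The shares of all protein-coding genes were then 15.7% and 14.4%. The median ratio was 1.13 by the deposited fold. Any of the 3 motifs was in the windows of 15 members (46.9%), beside 34.6% of all genes. For CACGTG alone this was 5 members (15.6%), beside 10.9%. No paired analysis was possible because each condition had 1 library. Depth limits peaks of under 10 fragments, which were 34.8% of the day 5 list and 42.2% of the list without doxycycline.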
